A study of Mus musculus with 22 samples.

Results

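The genes of coenzyme Q synthesis and Adck1 were followed in mouse hearts that lack the transcription factor Ronin, which the gene Thap11 encodes. The set held 10 genes. Adck1 was chosen because its intensity was lower in Ronin knockout hearts, whereas Coq2, Coq3, Coq4, Coq5, Coq6, Coq7, Coq9, Pdss1 and Pdss2 were added because they encode the synthesis pathway, to ask whether that fall was shared. Of these, 8 genes could be measured, with 15 probes, among the 19057 genes with a probe in the series; no probe was paired with Pdss1 or Pdss2 in the annotation used here, and both were not analysed. Adck1 therefore enters every comparison as a description without a test, and the 7 measured synthesis genes (Coq2, Coq3, Coq4, Coq5, Coq6, Coq7 and Coq9) were tested.

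The 22 arrays, 1 per RNA sample from whole C57BL/6 hearts, formed 10 groups. Controls carried a Cre transgene and were heterozygous for the floxed gene (RoninloxP/+), and knockouts carried a Cre transgene and were homozygous (RoninloxP/loxP), so that Cre and a floxed allele were common to all hearts. With Nkx2.5::Cre, which recombines in cardiac progenitors, there were 2 control and 2 knockout arrays at E9.5, each from a pool of 10 hearts, and 3 and 3 arrays at E11.5. With αMHC::Cre, which recombines in cardiomyocytes, there were 2 control and 2 knockout arrays at E11.5, at birth (P0) and at 6 weeks. The sample titles place the αMHC knockouts in these groups, although their genotype entry names Nkx2.5::Cre. Nothing in the labels says that replicates came from separate litters, so p-values measure only the spread between these samples.

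Coenzyme Q is the lipid that carries electrons in the mitochondrial inner membrane from complexes I and II, and from several dehydrogenases, to complex III. Its ring is joined to a long polyprenyl tail and then modified stepwise by enzymes that sit together in an assembly on the inner membrane. The heart, with its dense mitochondria, depends on this carrier. Adck1 belongs to the UbiB family of protein-kinase-like mitochondrial proteins; its relatives Coq8a and Coq8b serve coenzyme Q synthesis, and a yeast relative helps to set how coenzyme Q is distributed in the cell.

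Adck1 lies on chr12:88360494-88461726 of the GRCm38.p6 assembly. In the study's chromatin data from embryonic hearts, the promoters of Adck1 and Coq5 are listed as occupied by both Ronin and its cofactor Hcf-1, that of Coq7 by Hcf-1 alone, and the other members are named in neither list. The promoter windows of RefSeq on GRCm38.p6, from 250 bases before to 50 bases after an annotated start, were therefore searched on both strands for ACTACANNTCCC, a sequence associated with Ronin. The windows of Adck1, Coa3 and Etfdh are shown because Coa3 was among the genes whose knockout pattern was nearest to that of Adck1 and Etfdh, which hands electrons to coenzyme Q, was lower at 6 weeks. They lie at chr12:88360264-88360563 on the plus strand, chr11:101278899-101279198 on the minus strand and chr3:79628718-79629017 on the minus strand, and capitals mark the match.
Adck1: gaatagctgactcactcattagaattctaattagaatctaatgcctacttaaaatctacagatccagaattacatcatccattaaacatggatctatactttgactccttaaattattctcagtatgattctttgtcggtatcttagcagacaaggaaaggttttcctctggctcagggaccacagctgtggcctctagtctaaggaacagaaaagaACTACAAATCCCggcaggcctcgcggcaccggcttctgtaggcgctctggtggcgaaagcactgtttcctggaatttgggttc
Coa3: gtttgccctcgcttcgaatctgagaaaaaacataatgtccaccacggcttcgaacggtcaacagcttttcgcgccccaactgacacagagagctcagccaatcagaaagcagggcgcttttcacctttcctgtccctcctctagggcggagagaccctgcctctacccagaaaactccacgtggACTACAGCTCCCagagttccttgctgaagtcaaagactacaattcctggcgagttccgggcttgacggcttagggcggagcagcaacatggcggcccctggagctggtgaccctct
Etfdh: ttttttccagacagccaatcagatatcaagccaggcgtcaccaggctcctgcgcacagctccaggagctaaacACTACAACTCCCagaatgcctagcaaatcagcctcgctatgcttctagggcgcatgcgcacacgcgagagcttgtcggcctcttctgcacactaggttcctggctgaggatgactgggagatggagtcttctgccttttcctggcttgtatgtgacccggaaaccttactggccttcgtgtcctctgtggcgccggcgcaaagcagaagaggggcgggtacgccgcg

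In Adck1 the match ACTACAAATCCC spanned bases -33 to -22 from the start, and a second annotated Adck1 start had none. Of the 9 members with a window, Adck1 was the 1 with a match; Coq2, Coq3, Coq4, Coq6, Coq7, Coq9, Pdss1 and Pdss2 had none in these windows, and Coq5 had no window to search. Among all genes with a window, 563 of 27025, or 2.08%, held a match. With the Ronin motif of the study's chromatin data in place of this sequence, Adck1 was again the 1 member with a match, beside 2.61% of genes. A match is a run of letters and was not tested as a binding site.

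Thap11 itself was lower in every knockout array than in every control array of its own comparison. At E9.5 its intensity was 3658 and 3555 in controls against 3116 and 1940 in knockouts, and at 6 weeks 1456 and 1438 against 290 and 772. The knockout arrays at E11.5 reached 1000 to 1424 with Nkx2.5::Cre, below the lowest control at 1855, and 2902 and 4315 with αMHC::Cre, below the lowest control at 4702. At birth they reached 3238 and 2944, below the lowest control at 4067. In whole hearts, fewer cells of a type and less RNA per cell cannot be told apart.

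Adck1 was lower in all 11 knockout arrays than in any control of the same age and driver, most deeply in Nkx2.5::Cre hearts at E11.5 and in αMHC::Cre hearts at 6 weeks. It was measured by a single probe. At E9.5 its intensity was 331 and 394 in controls against 235 and 211 in knockouts. At E11.5 with Nkx2.5::Cre it was 293, 301 and 287 in controls against 127, 136 and 142 in knockouts. Every knockout array there was below the lowest control. With αMHC::Cre at the same age the values lay close together, at 386 and 420 against 327 and 354.

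At birth Adck1 was 486 and 612 in controls against 343 and 378 in knockouts, and at 6 weeks 622 and 525 against 249 and 288. Thus the groups did not overlap in any of the 5 comparisons. In the same comparisons, in the order given, 13.8%, 8.57%, 17.8%, 15.7% and 17.9% of all genes tested had every knockout array below every control array; as Adck1 was picked for this fall, nothing is read from the agreement. In group means, intensity went from 294 ± 7.19 to 135 ± 7.68 (SD, n = 3 each) at E11.5 and from 573 ± 68.5 to 268 ± 27.4 (SD, n = 2 each) at 6 weeks.

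On the log2 scale, the difference between knockout and control for Adck1 was -0.70 at E9.5 and -1.12 at E11.5 with Nkx2.5::Cre. It was -0.24, -0.60 and -1.09 with αMHC::Cre at E11.5, birth and 6 weeks. Set against the geometric mean of their own controls, the knockout arrays kept 58.3 to 65.0% of the Adck1 intensity at E9.5, 43.2 to 48.4% at E11.5, 81.2 to 87.9% in αMHC::Cre hearts at E11.5, 63.0 to 69.4% at birth and 43.6 to 50.4% at 6 weeks.

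**Figure D1:**
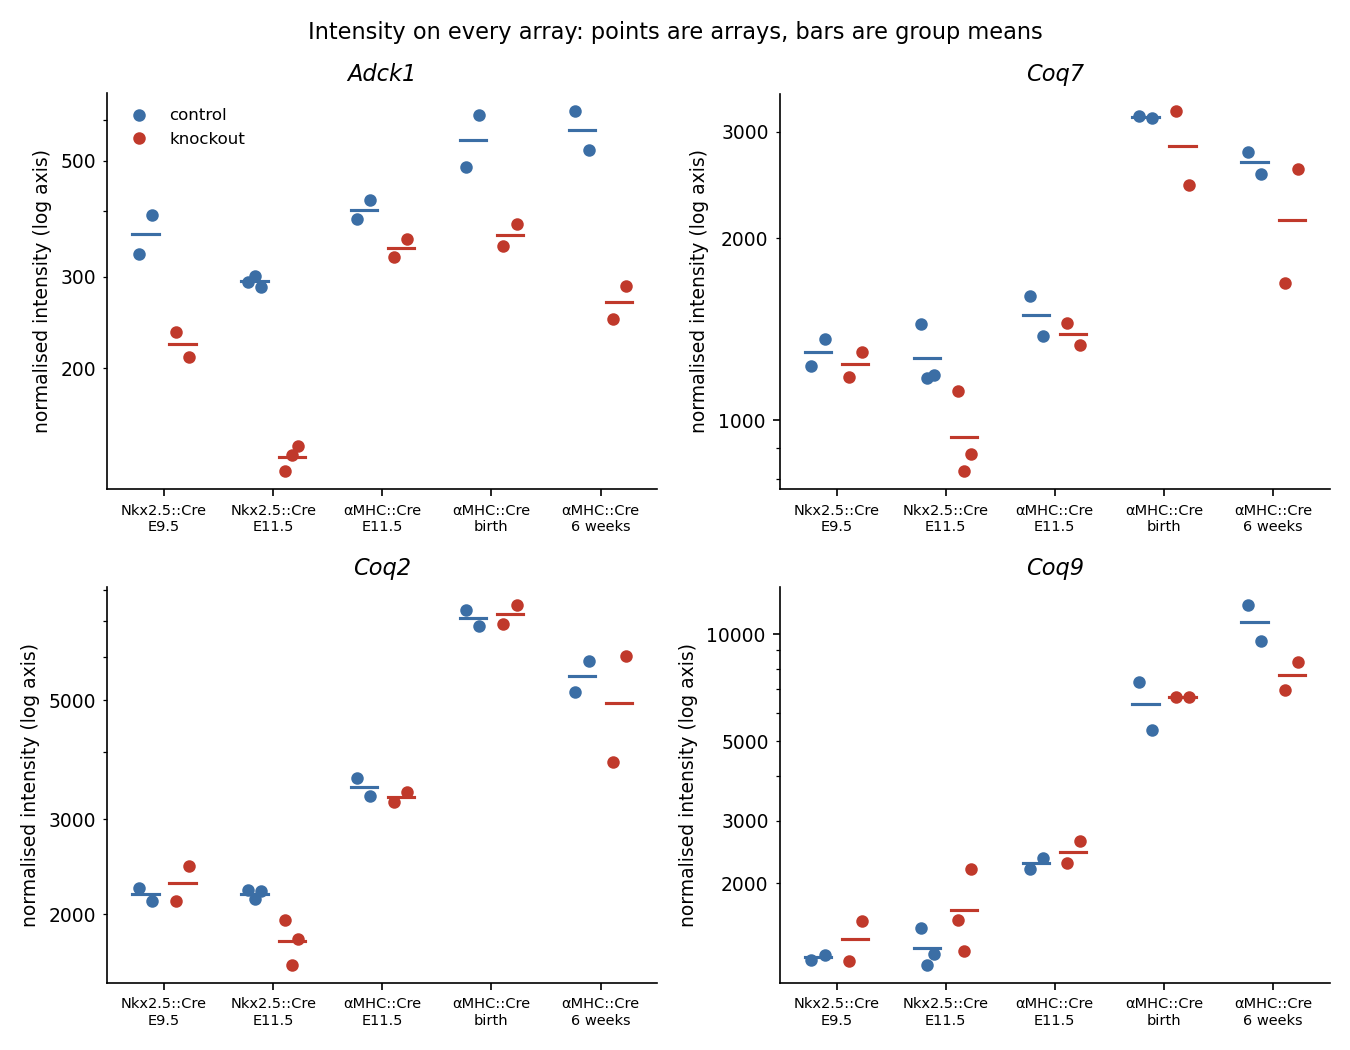
Normalised intensity (log axis) of Adck1, Coq7, Coq2 and Coq9 on every array, with control arrays in blue, knockout arrays in red and horizontal bars at the group means. Adck1 was lower in every knockout array than in its own controls, from 127 to 142 against 287 to 301 at E11.5 with Nkx2.5::Cre, while the groups of the other genes overlapped in most comparisons.

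The fall was not called in the pathway: none of the 7 synthesis genes passed the test, in either direction, in any of the 5 comparisons. The test was limma on log2 intensity with Benjamini-Hochberg adjustment over all genes tested, called at an adjusted p under 0.05. The methods' t-test on the same values and with the same adjustment called 0 of the 7 too, but also no more than 1 of all genes in any comparison, so its count says nothing about them. In the Nkx2.5::Cre hearts 0.179% of all genes were called higher and 0.316% lower at E9.5, while at E11.5 the shares were 0.110% and 0.380%. In the αMHC::Cre hearts these shares were 0% and 0.00840% at E11.5, 0% and 0% at birth, and 0.717% and 1.05% at 6 weeks. The count of 0 of 7 thus lies near the background in every comparison.

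At an unadjusted p under 0.05 the synthesis genes gave 0 calls at E9.5, 2 at E11.5 with Nkx2.5::Cre and 0 in each αMHC::Cre comparison, beside 4.75%, 8.50%, 4.39%, 4.21% and 10.6% of all genes. The median of the 7 log2 differences was 0.03 at E9.5 and -0.18 at E11.5 with Nkx2.5::Cre, and -0.05, 0.00 and -0.07 with αMHC::Cre at E11.5, birth and 6 weeks. The medians over all genes tested were 0.01, -0.02, -0.01, 0.00 and 0.02. In every comparison each of the 7 genes differed by less than Adck1 in size. As Adck1 was chosen for its fall, this order is a description.

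The 95% confidence intervals say how much could have been missed. They were set against the value of Adck1 as a fixed mark, without its own spread. Because Adck1 was chosen for its fall, that mark may be too deep. At E11.5 with Nkx2.5::Cre and at 6 weeks, all 7 intervals lay above the value of Adck1. Coq3 was dim in the Nkx2.5::Cre controls at E11.5, at a mean of 84.4 beside array medians of 58.2 to 58.3. Its probe may not be able to show so deep a fall, so nothing is read from its interval there. At E9.5 and at birth 6 of 7 did, the exceptions being Coq3 and Coq4. In αMHC::Cre hearts at E11.5, where Adck1 itself was 0.24 lower, the intervals of 5 genes reached its value, and a fall of that size could not be told from none. A gene with no call may still have changed, and the intervals bound by how much where the probe is bright enough.

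Groups that did not overlap were counted as a second view. This was so for 1 of 7 genes at E9.5, 2 at E11.5, 0 in αMHC::Cre hearts at E11.5, 3 at birth and 2 at 6 weeks. Over all genes tested the shares were 29.8%, 12.7%, 32.5%, 30.3% and 37.5%, and with 2 arrays against 2 such separation is frequent.

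**Figure D2:**
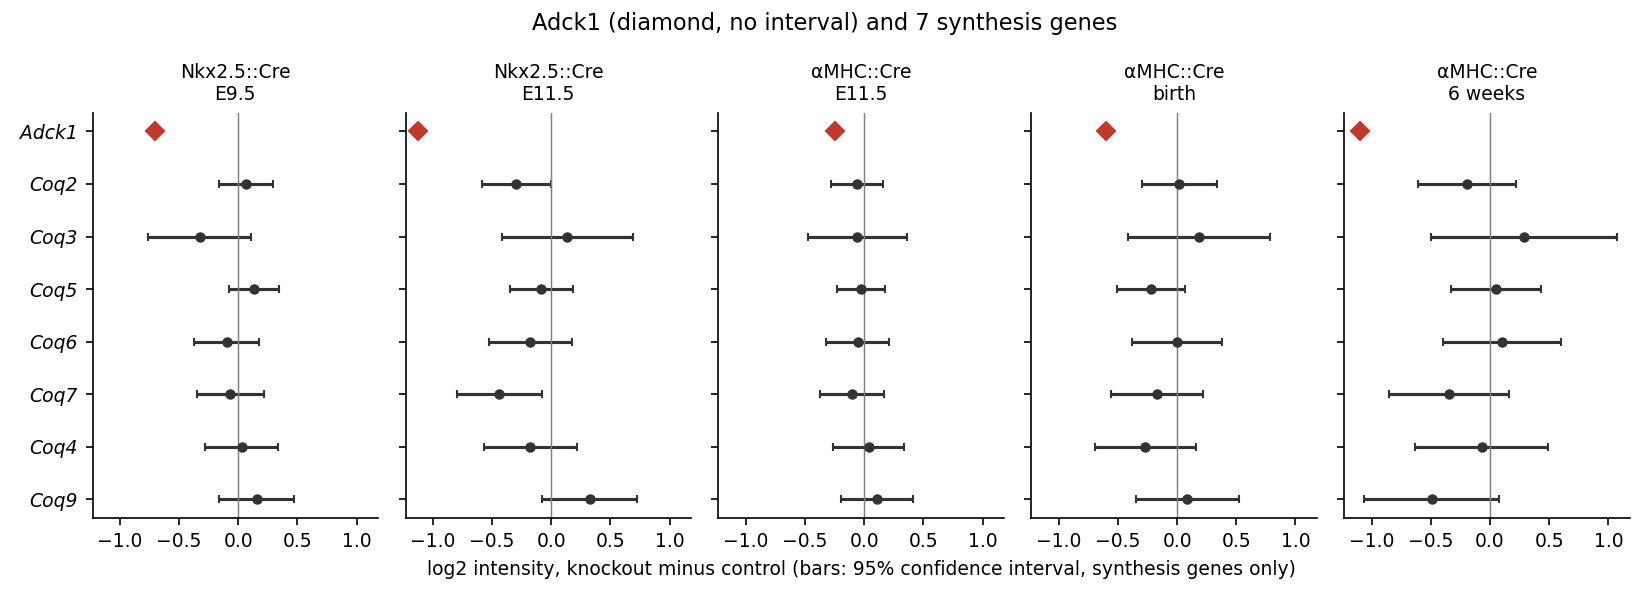
Log2 difference in intensity between knockout and control for Adck1 (red diamonds, shown without an interval because the gene was chosen for this value) and 7 synthesis genes (points, with 95% confidence intervals from the fit), 1 panel per comparison. The points of the synthesis genes lie between -0.49 and 0.32, whereas Adck1 reaches -1.12 and -1.09.

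Coq2, the transferase that joins the polyprenyl tail to the ring precursor, passed the unadjusted test in Nkx2.5::Cre hearts at E11.5, where its mean was lower in knockouts. Its intensity there was 2217, 2131 and 2205 in controls against 1948, 1612 and 1798 in knockouts, with no overlap. The log2 difference was -0.29 (95% interval -0.58 to -0.0048, unadjusted p = 0.0467, adjusted p = 0.58 by limma), so it was not called. Its second probe also gave -0.29 there, with overlapping groups. The αMHC::Cre hearts at E11.5 overlapped, with 3575 and 3320 in controls and 3233 and 3371 in knockouts. At birth the levels were 7355 and 6866 against 6919 and 7507, again interleaved. At 6 weeks 1 knockout array was at 3844 and the other at 6034, around controls at 5169 and 5900.

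Coq3 and Coq5 are methyltransferases that act on the ring. Coq5 is the synthesis gene that shares the Ronin and Hcf-1 label with Adck1, and its values stayed near those of the controls. At E11.5 with Nkx2.5::Cre its intensity was 3455, 3350 and 3176 in controls against 3444, 3041 and 2940 in knockouts. At 6 weeks the controls were at 5940 and 6319 and the knockouts at 5995 and 6720. These groups overlapped, and the 5 log2 differences of Coq5 ran from -0.22 at birth to 0.13 at E9.5, with adjusted p from 0.94 to 1.00 by limma.

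At birth alone Coq5 was lower in both knockout arrays, at 7936 and 7221 against 8901 and 8751, a log2 difference of -0.22 with an interval from -0.51 to 0.07. The 2 further Coq5 probes showed differences of -0.07 and 0.04 at that age. Over all comparisons the 3 probes of Coq5 lay between -0.22 and 0.34.

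Coq3 had the widest interval of the 7 genes in each comparison. It was 130 and 129 in controls against 109 and 98.5 in knockouts at E9.5, a log2 difference of -0.32 (95% interval -0.76 to 0.11, adjusted p = 1.00 by limma). Its second probe gave 0.03 there. At 6 weeks the arrays of both groups split by replicate number: 208 and 308 in control 1 and knockout 1, and 601 in both control 2 and knockout 2. In these hearts Xist, which female cells express, was at 57.5 and 58.5 in the replicates numbered 1 and at 556 and 689 in those numbered 2, and its part in the Coq3 split was not tested.

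Coq6 and Coq7 are hydroxylases of the ring, and Coq7 works together with the lipid-binding protein Coq9. Coq7 had the lowest of the 7 values in Nkx2.5::Cre hearts at E11.5. The controls were at 1443, 1172 and 1190 and the knockouts at 1116, 823 and 879. Every knockout array lay below every control array. The log2 difference was -0.44 (95% interval -0.80 to -0.08, unadjusted p = 0.0188, adjusted p = 0.44 by limma), against -1.12 for Adck1 in the same arrays. Over the alternative fits the Coq7 difference ran from -0.57 to -0.34 and was not called, with a lowest adjusted p of 0.069 by limma.

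In the other comparisons the Coq7 groups overlapped. At E9.5 the values were 1229 and 1363 in controls against 1180 and 1295 in knockouts. At birth they were 3185 and 3153 against 3238 and 2443. At 6 weeks they were 2780 and 2553 against 1689 and 2597, where 1 knockout array carried the difference of -0.35 (95% interval -0.86 to 0.16, adjusted p = 0.77 by limma). Coq7 was below 0 in all 5 comparisons, which is a description of 1 gene on 1 probe.

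Coq6 gave log2 differences of -0.10, -0.18, -0.05, 0.00 and 0.10. Its groups separated at 6 weeks, at 5169 and 5636 in controls and 5641 and 5949 in knockouts, by a margin of a few units of intensity. The other 2 probes of Coq6 disagreed in sign at this age, at -0.34 and 0.25.

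Coq9 was the synthesis gene with the largest difference at 6 weeks, where it was 12071 and 9556 in controls against 6981 and 8339 in knockouts, with no overlap. The log2 difference was -0.49 (95% interval -1.07 to 0.08, adjusted p = 0.60 by limma). In the 4 earlier comparisons its mean was higher in knockouts, by 0.16, 0.32, 0.11 and 0.09 on the log2 scale, none of them called. At E11.5 with Nkx2.5::Cre the knockouts were at 1574, 1290 and 2188 and the controls at 1503, 1183 and 1272, and 1 knockout array stood above the rest. The test of the change in knockout effect from birth to 6 weeks gave -0.58 for Coq9 (adjusted p = 0.81 by limma), not called.

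Coq4, which holds the synthesis assembly together, was 492 and 461 in controls against 439 and 356 in knockouts at birth, separate groups with a log2 difference of -0.27 (95% interval -0.70 to 0.16). Its second probe was 0.10 there. In the other comparisons the groups of its first probe overlapped, with log2 differences of 0.03, -0.18, 0.04 and -0.07. The second probe gave 0.01, -0.24, -0.03 and -0.16 there, with separate groups only at E11.5 with Nkx2.5::Cre. Over the 14 probes of the 7 synthesis genes and 5 comparisons, the 70 differences ran from -0.49 to 0.34.

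The knockout effects were also set against each other. The contrast of Nkx2.5::Cre hearts at E11.5 with those at E9.5, that of Nkx2.5::Cre with αMHC::Cre at E11.5, and that of 6 weeks with birth called none of the 7 synthesis genes, beside 0.0169%, 0.0758% and 0.263% of all genes, and none passed an unadjusted p under 0.05 either. The adjusted p ranged from 0.99 to 1.00, was 1.00 and ranged from 0.81 to 1.00 in these contrasts. The largest of the differences in effect were 0.46 for Coq3 between E11.5 and E9.5 and -0.58 for Coq9 between 6 weeks and birth.

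Levels of the pathway were then compared between ages in control hearts, after quantile normalisation of all 22 arrays to 1 distribution, since the deposited values differ in scale between the sets. On this scale the synthesis genes were mostly higher at the older age. From E9.5 to E11.5 in Nkx2.5::Cre controls, 5 of 7 rose and none fell, beside 18.7% and 16.6% of all genes, whereas none rose and Coq3 fell on the values as deposited and with each array scaled to the same median. Without control 1 at E11.5, 3 of these 5 calls remained and those of Coq7 and Coq9 were lost. From E11.5 to birth in αMHC::Cre controls, 5 of 7 rose and none fell, beside 22.7% and 32.1%, and none fell on the other scales either. From birth to 6 weeks Coq9 alone rose and none fell, beside 17.1% and 18.1%, whereas Coq4, Coq5 and Coq6 fell on the values as deposited and Coq6 fell with equal array medians. Without control 1 at 6 weeks Coq3 was called too, for 2 of 7. Array set and age cannot be told apart.

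Coq9 rose at every step, by 0.66, 1.05 and 1.48 on the log2 scale, of which the first was not called on the other scales (adjusted p = 0.0059, 4.2e-05 and 0.00014 by limma). Its quantile-normalised intensity in αMHC::Cre controls was 1794 and 1938 at E11.5, 4476 and 3353 at birth and 11934 and 9819 at 6 weeks, with no overlap between ages. Coq2 rose by 0.60 and 0.63, Coq6 by 0.66 and 0.62 and Coq7 by 0.55 and 0.73 in the first and second steps. Coq5 rose by 0.66 in the first step and Coq3 by 0.79 in the second, a call lost without control 2 at E11.5 or control 1 at birth. Coq4 was called at no step, at 0.17, 0.19 and -0.03.

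The median of the 7 genes was 0.60, 0.63 and 0.39 on the log2 scale, against 0.02, -0.08 and 0.01 over all genes. On the values as deposited the median over all genes was itself shifted, to -0.34, 0.43 and -0.70, and that of the synthesis genes was 0.01, 1.09 and -0.36; relative to all genes they were still higher, by 0.34, 0.67 and 0.34. Scaling each array to the same median shifts all genes of an array alike, so it cannot change these distances. After quantile normalisation, genes of mitochondrial content had medians of 0.27, 0.61 and 0.17 in the same steps. Enzymes that reduce coenzyme Q had 0.54, 0.65 and 0.56, and mevalonate genes 0.10, -0.50 and -0.73. The rise was thus not particular to the synthesis genes. From E11.5 to birth 5 of 6 erythroid markers were called lower, with a median of -7.28. The part of this difference was not tested.

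After quantile normalisation Adck1 followed another course in controls. With Nkx2.5::Cre its quantile-normalised intensity was 331 and 394 in the E9.5 controls, then 399, 412 and 391 in those of E11.5. With αMHC::Cre the E11.5 controls were at 334 and 363, and later controls at 307 and 389 at birth and 725 and 606 at 6 weeks. The levels at E11.5 and birth overlapped in αMHC::Cre hearts, and those at 6 weeks stood above all earlier controls. The log2 steps were 0.15, -0.01 and 0.94, given without a test. The 6-week knockout arrays were at 279 and 328 on this scale and, apart from the birth control at 307, below every control array. On the values as deposited the control means of Adck1 were 362 and 294 with Nkx2.5::Cre, and 403, 549 and 573 with αMHC::Cre. There the αMHC::Cre controls at E11.5 and birth did not overlap, and those at birth and 6 weeks did. The course of Adck1 with age thus depends on the scale.

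**Figure D3:**
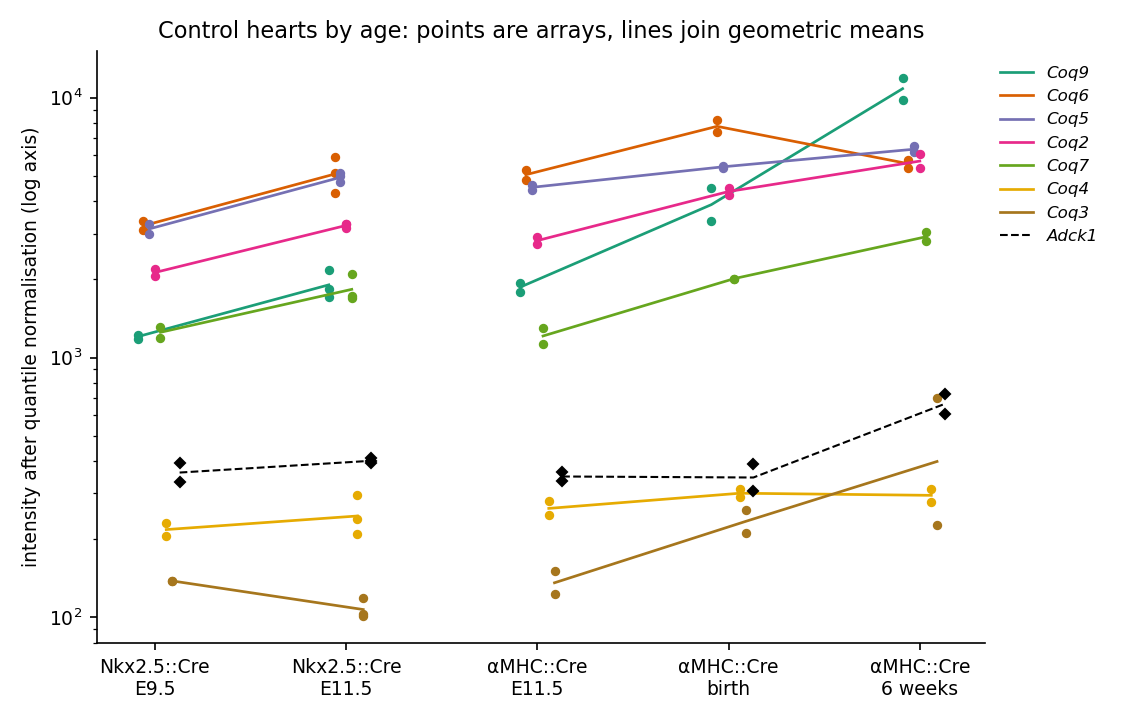
Intensity after quantile normalisation (log axis) of 7 synthesis genes and Adck1 (dashed, diamonds) in control hearts, with points for arrays and lines joining geometric means within each Cre line. Coq9 climbs from 1794 and 1938 at E11.5 to 11934 and 9819 at 6 weeks, while Adck1 stays between 307 and 412 until birth and reaches 725 and 606 at 6 weeks.

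Other genes of coenzyme Q biology gave no call in the knockouts either. Of 9 listed, 8 had a probe and 5, 6, 5, 7 and 7 were bright enough to test in the 5 comparisons, with 0 called by limma. Beside 4.75%, 8.50%, 4.39%, 4.21% and 10.6% of all genes, 1, 0, 0, 0 and 1 passed an unadjusted p under 0.05. These were Coq10a, lower at E9.5, and Coq8b, higher at 6 weeks (log2 difference 0.46, unadjusted p = 0.0326, adjusted p = 0.38 by limma). Coq10a, a lipid-binding protein needed for coenzyme Q to work in respiration, was 218 and 229 in controls against 173 and 176 in knockouts at E9.5, a log2 difference of -0.36 (adjusted p = 0.56 by limma). A second annotated Coq10a start, at chr10:128368931-128369230 on the minus strand, held ACTACATCTCCC. In the later comparisons Coq10a was at -0.08, -0.16, -0.12 and -0.31. Coq8a, the ADCK relative, was too dim to test at E9.5 and E11.5 and was 183 and 184 in controls against 131 and 138 in knockouts at 6 weeks (log2 difference -0.45, adjusted p = 0.53 by limma).

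In controls Coq10a climbed steeply, from 300 and 292 at E11.5 to 952 and 799 at birth and 6289 and 6623 at 6 weeks after quantile normalisation. The log2 steps were 1.56 and 2.89 (adjusted p = 6.0e-08 and 4.1e-09 by limma). Both steps of Coq10a were called under every scale tried. Coq8a rose by 1.16 in the second of these steps (adjusted p = 0.00029 by limma), which was not called on the values as deposited; it was below the median probe at E11.5, and its first step is not given.

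Among the enzymes that reduce coenzyme Q, 1 was called, at 6 weeks. Etfdh, the oxidoreductase through which fatty acid oxidation feeds coenzyme Q, was 9890 and 8508 in controls against 1912 and 3911 in knockouts at 6 weeks. Its log2 difference was -1.75 (adjusted p = 0.0016 by limma). The list of 12 also holds the succinate dehydrogenase subunits, Etfa, Etfb, Dhodh, Gpd2 and Sqor. Etfdh was the 1 call among 11 tested, beside 1.05% of all genes called lower. Without control 1 it was -1.64 and no longer called (adjusted p = 0.10). The mean over its probes gave -1.08. At an unadjusted p under 0.05 by limma, 1, 3, 0, 0 and 2 genes of the list were lower in the 5 comparisons. Higher were 0, 0, 0, 1 and 1. The shares of all genes in either direction were 4.75%, 8.50%, 4.39%, 4.21% and 10.6%.

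In both Nkx2.5::Cre comparisons Etfdh had a lower mean in knockouts, without a call in the unblocked fit of all arrays on the values as deposited. At E11.5 it was 1443, 998 and 1430 in controls against 679, 635 and 828 in knockouts, with no overlap and a log2 difference of -0.84 (adjusted p = 0.065 by limma). Blocked by replicate number, the fit gave an adjusted p of 0.0089, quantile normalisation of all arrays gave -0.87 with an adjusted p of 0.043, and the mean over its probes gave -0.25 with an adjusted p of 0.45. It was also called without control 2 or without knockout 3 (adjusted p = 0.040 and 0.012). At E9.5 it was 857 and 909 against 658 and 600. At birth the groups overlapped, at 8009 and 6772 against 6676 and 7488.

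Of the mevalonate genes, which supply the polyprenyl tail, 1 of 4 tested was called lower at 6 weeks, beside 1.05% of all genes. The called gene was Fdps. This farnesyl diphosphate synthase was 1010 and 867 in controls against 367 and 455 in knockouts, a log2 difference of -1.20 (adjusted p = 0.0019 by limma). The call was lost without control 1 (adjusted p = 0.14), and the mean over its probes was -0.56 and not called. None of the 4 or 5 mevalonate genes tested in the other comparisons was called, nor did any pass an unadjusted p under 0.05.

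The whole of the mitochondria was gauged with 14 content genes such as Cs, Vdac1, Tfam and Immt, of which 12 had a probe. None was called in any comparison by limma. Beside 4.75%, 8.50%, 4.39%, 4.21% and 10.6% of all genes in either direction, 0, 2, 0, 0 and 1 were lower at an unadjusted p under 0.05. Their median log2 difference was 0.03 and -0.11 with Nkx2.5::Cre and -0.09, 0.02 and -0.24 with αMHC::Cre, and 10 of 11 tested were below 0 in αMHC::Cre hearts at E11.5 and 10 of 12 at 6 weeks. The electron-donor list lay at -0.26 at 6 weeks, with 10 of 11 genes below 0, and the synthesis genes at -0.07, with 4 of 7. In Nkx2.5::Cre hearts at E11.5 the electron-donor list lay at -0.20, with 8 of 9 tested below 0. The synthesis genes were at -0.18 there, with 5 of 7 below 0.

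**Figure D4:**
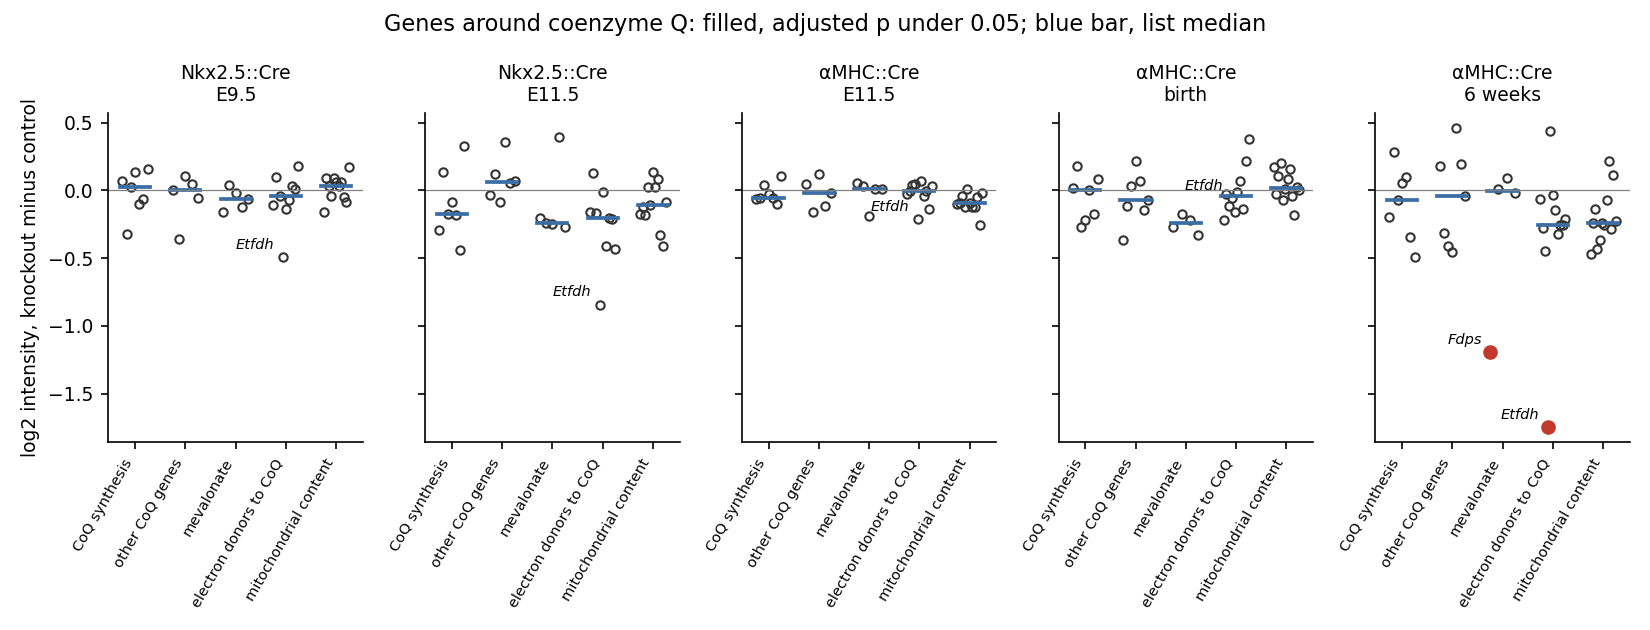
Log2 difference between knockout and control for the tested genes of 5 lists around coenzyme Q, 1 panel per comparison, with filled red points for genes called at an adjusted p under 0.05 and blue bars at list medians. Etfdh at -1.75 and Fdps at -1.20 at 6 weeks are the 2 filled points.

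The genes whose knockout pattern was nearest to that of Adck1 were sought outside the pathway. Over the 11 knockout arrays, each gene's log2 difference from its own controls was set against that of Adck1 among 9895 other genes tested in all comparisons, by root mean square difference. Dnajc18, Coa3, Zmat5, Enox2, Macrod1 and Uqcr10 were nearest, at 0.20 to 0.25. A gene with no change at all would stand at 0.85. After quantile normalisation the same 6 genes were nearest. They are described here, not tested, because Adck1 was chosen from these arrays.

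Coa3, which helps to assemble cytochrome oxidase, followed Adck1 closely at -0.69, -1.12, -0.24, -0.50 and -1.47 in the 5 comparisons. Dnajc18, a J-domain protein, was at -0.66, -0.92, -0.22, -0.47 and -1.21. Uqcr10, a subunit of complex III, was at -0.72, -1.32, -0.25, -0.19 and -1.24. Zmat5 and Macrod1 were at -0.91 and -1.21 in Nkx2.5::Cre hearts at E11.5. At birth Zmat5 was at -0.51, Macrod1 at -0.25 and Enox2 at -0.12, beside -0.60 for Adck1.

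The synthesis gene nearest to Adck1 was Coq7, at rank 223 and a distance of 0.62, followed by Coq2 at rank 913 and 0.73. Coq4, Coq6 and Coq5 stood at 0.78, 0.83 and 0.84, and Coq9 and Coq3 at 0.96 and 0.98, farther from Adck1 than a gene without change. Of the 6 nearest genes, 5 had a promoter window and 4 held ACTACANNTCCC, beside 2.08% of all genes with a window. These were Coa3 with ACTACAGCTCCC, Zmat5 with ACTACAAGTCCC, Enox2 with ACTACATTTCCC and Uqcr10. Macrod1 had no match, and Dnajc18 had no window to search. The 6 genes were picked from these arrays, and the count was not tested. Uqcr10 and Zmat5 start back to back on chromosome 11, and their windows share 189 bases. Each of these windows held 2 matches, of which 1 lay in the shared bases.

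**Figure D5:**
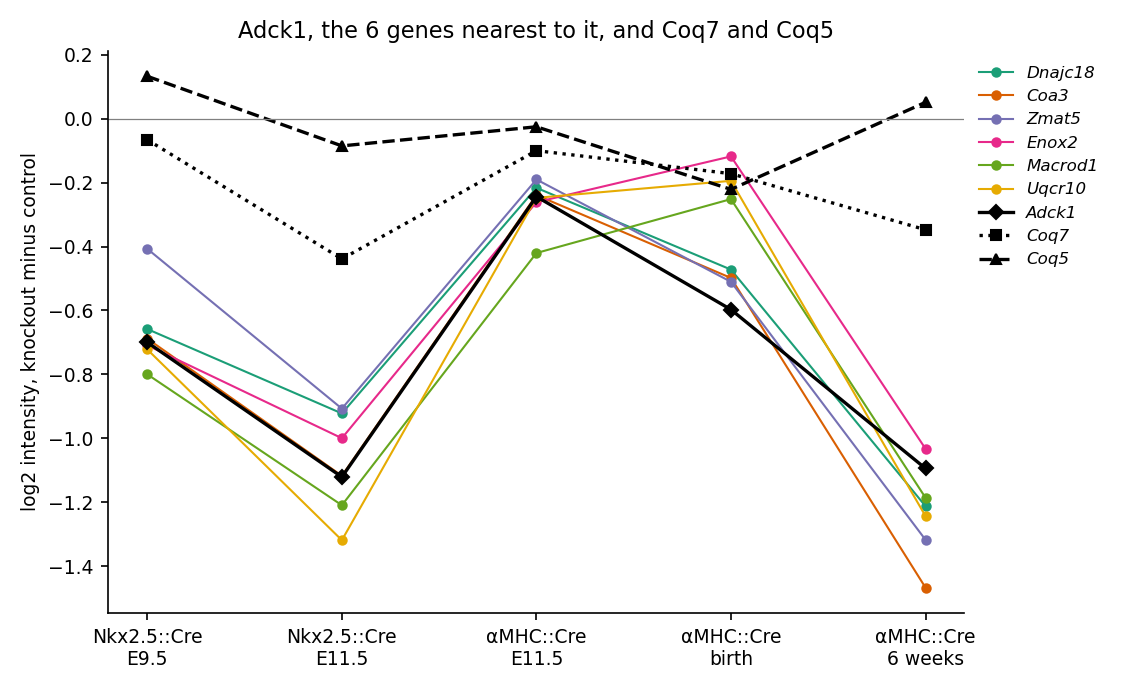
Log2 difference between knockout and control in the 5 comparisons for Adck1 (black diamonds), the 6 genes nearest to it (colours), and Coq7 and Coq5 (dotted and dashed). The 6 genes fall to between -0.91 and -1.32 at E11.5 with Nkx2.5::Cre, beside -1.12 for Adck1, while Coq5 stays at -0.09.

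The array weights set by comparison ran from 0.53 to 1.90. The hearts expressed 7 cardiomyocyte markers, all above the median probe in every group. Their summed intensity was 85303 to 95850 in controls and 73917 to 97710 in knockouts at E11.5 with Nkx2.5::Cre, and 117181 to 125213 against 120975 to 122478 at 6 weeks, where their log2 differences ran from -0.87 for Myl7 to 1.89 for Myh7 with a median of -0.23 and 0 were called by limma. The sum over 7 erythroid markers was 133602 to 175466 against 145803 to 220177 at E11.5 with Nkx2.5::Cre. Of 6 tested there, 5 were above 0, with a median log2 difference of 0.36, and 0 were called. At an unadjusted p under 0.05 by limma 3 were higher, beside 8.50% of all genes in either direction. The fibroblast median there was 0.25, with 3 of 4 tested above 0. With αMHC::Cre at E11.5 the erythroid sum was 208744 to 210087 against 228733 to 256140, and all 6 tested were above 0. In these αMHC::Cre hearts the smooth muscle sum was higher too, at 48172 to 49753 against 51528 to 51586. Other sums there were lower in knockouts without overlap. They were 99205 to 101822 against 95816 to 98247 for cardiomyocyte and 10747 to 10975 against 9536 to 9833 for endothelial markers. The fibroblast sum was 9298 to 9753 against 7451 to 8564, with 0 of 4 tested above 0. Fibroblast markers, summed over 5 genes, reached 26304 to 26637 against 28718 to 32633 at birth, with 5 of 5 above 0, and 14663 to 17831 against 17212 to 21006 at 6 weeks, with 4 of 4 tested above 0. The sum over 4 smooth muscle markers was 13867 to 16675 against 35925 to 59446 at 6 weeks, where Acta2 was called higher. Xist was at 1888 and 1989 in αMHC::Cre controls at E11.5 and at 49.9 and 54.9 in knockouts. Sex and genotype therefore cannot be told apart in that comparison, or in the contrast of the Cre lines that uses it. The part of these differences in the values above was not tested.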

How the data were processed

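The authors deposited normalised intensity values of Illumina MouseWG-6 v2.0 arrays, 1 per sample; the methods name quantile and cubic spline normalisation, and which applies to which array was not stated. These intensity values were set to log2 and fitted with limma 3.58.1 (statmod 1.5.0, R 4.3.3) as 10 group means with 12 residual degrees of freedom, array weights by comparison and an intensity trend. The probe of highest mean stood for its gene, and genes above the median probe of the comparison were tested, with Benjamini-Hochberg adjustment at 0.05. Of 45281 probes, 34885 had 1 gene name in the platform annotation, 18 several and 10378 none. Ages of controls were compared after quantile normalisation of all 22 arrays. The 22 per-sample columns of the non-normalised table carried names that matched no sample and were not used. In Nkx2.5::Cre hearts at E11.5 the same-numbered control and knockout arrays deviated together (r = 0.44, 0.61 and 0.52 across genes, which are not independent replicates). The same r was 0.36 at E9.5, and 0.02, 0.22 and 0.35 in αMHC::Cre hearts at E11.5, birth and 6 weeks. A fit with the replicate number as a block was therefore an alternative, given where it changes a call. The named genes were the members, Thap11, the 6 genes nearest to Adck1, and genes past the threshold in 4 fixed lists; Coq8a and Coq10a were singled out from the list after their values were seen. The members and lists were chosen with earlier results of these data known. The fit was also run on simulated data. These had independent noise on each array, whereas same-numbered arrays here deviated together, so nothing is read from that run. The alternatives tried were other scalings, equal weights, no filter, the mean of a gene's probes, a replicate block, the methods' t-test, each comparison fitted alone and leaving out each array. The number of arrays limits the precision.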

Additional observations from a re-analysis of the deposited data

How the results depend on the processing

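None of the 434 alternative values of the synthesis genes in the knockout comparisons gave a call, and the sign of the uncalled difference changed in 31. The lowest adjusted p by limma was 0.069, for Coq7 in Nkx2.5::Cre hearts at E11.5. In the knockout comparisons the replicate block called 0 synthesis genes and, of the calls of Etfdh and Fdps, changed that of Etfdh at E11.5 with Nkx2.5::Cre; it was not run between ages. Between control ages, 166 of 196 values stayed on their side of the threshold, called or not, 16 lost a call, 12 gained one and 2 turned. On the values as deposited, the synthesis genes called were 1 from E9.5 to E11.5 (median 0.0054, Coq7 at -0.036) and 4 from birth to 6 weeks (median -0.36, Coq5 at -0.53), and the median from E11.5 to birth was 1.09. With each array scaled to the same median, 1 and 2 were called in the first and the last step, with medians of 0.048 and 0.12. In the last step 2 were called with equal array weights and 3 with the mean of the probes. Leaving out 1 array gave 3 to 5 calls in the first step, 4 to 5 in the second and 1 to 2 in the last. At 6 weeks the calls of Etfdh and Fdps were lost with each comparison fitted alone (adjusted p = 0.26 and 0.27) and by the methods' t-test (0.90 for both). The cause was not tested.

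Counts over all genes depended on the fit. In the order Nkx2.5::Cre E9.5 and E11.5, then αMHC::Cre E11.5, birth and 6 weeks, 58, 58, 1, 0 and 207 genes were called, against 14, 14, 15, 2 and 0 with each comparison fitted alone, 2, 124, 0, 0 and 602 with equal weights, 79, 489, 11, 1 and 527 with the replicate block, and 0, 1, 0, 0 and 1 by the methods' t-test. Without the filter 37 were called at E9.5, and with the mean of the probes 4 in αMHC::Cre hearts at E11.5. Leaving out 1 array gave 1 to 114, 20 to 235, 0 to 5, 0 to 10 and 9 to 750. The contrasts of knockout effects called 2, 9 and 31 genes, against 1, 1 and 51 with equal weights and 61, 19 and 49 with the block.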
